A study of Danio rerio with 24 samples.

Results

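The genes described here encode digestive enzymes that the exocrine pancreas secretes, measured in whole zebrafish (Danio rerio) larvae exposed to sodium arsenite, uranyl nitrate or both. The 10 genes were taken by symbol through their NCBI Gene numbers. They are the trypsin gene prss1, the trypsin-like genes prss59.1 and prss59.2, the elastase genes ela2 and ela2l, the chymotrypsin-like gene ctrl, the carboxypeptidase genes cpa5 and cpb1, the carboxyl ester lipase gene cel.1 and the amylase gene amy2a. They are 10 of 39974 genes in the table and of 22682 that passed the filter on low values, and all 10 passed it.

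The acinar cells of the exocrine pancreas make these enzymes in very large amounts, store them in zymogen granules and release them into the intestine. The proteases are stored as inactive precursors, and trypsin activates the others once enteropeptidase of the intestinal wall has activated trypsin itself. The acinar programme is held by transcription factors such as Ptf1a, and in zebrafish larvae the enzymes are in place by the time the yolk is used up and feeding starts.

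All larvae were wild-type animals of the AB strain, sampled at 5 days after fertilization, and every exposure was continuous from 4 hours after fertilization, in 0.3X Danieau's solution that was renewed 2 times a day. The 6 groups were a vehicle control, sodium arsenite (trivalent inorganic arsenic) at 1 µM, sodium arsenite at 10 µM, uranyl nitrate (a soluble uranium salt) at 30 µg/L, uranyl nitrate at 300 µg/L, and a mixture that held both metals at their lower dose. Each group had 4 libraries of polyadenylated RNA, and 1 library held the RNA of 10 pooled larvae, so n = 4 pools throughout. The values are FPKM (fragment counts scaled to gene length and library size), a scale on which levels of different genes can be compared per length. Depth, as recovered from the FPKM steps, ran from 15456854 to 22987080 reads per library. Since RNA came from whole larvae, fewer cells of a type and less RNA per cell cannot be told apart in any value below.

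The enzyme genes stood high in the larval transcriptome. Together they took 0.378 to 0.629% of all reads in a library, with a median of 0.515%, and their summed level ran from 3679 to 6107 FPKM over the 24 libraries. No gene rested on few reads, since the count of a gene in a library was never below 543 (cpb1) and reached 34755 (prss1).

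Among the trypsins, prss1 was the most abundant of the 10 genes, with a mean of 1611 FPKM over the 24 libraries, and it ranked 37th of all genes tested. The adjacent genes prss59.1 and prss59.2, which encode serine proteases of the trypsin family, averaged 743 and 719 FPKM. Trypsins cut after basic residues. How reads shared between such close copies were assigned is not given in the sources used here, so the split between prss59.1 and prss59.2, and that between the neighbours ela2 and ela2l, carries that uncertainty.

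The other proteases spanned a wide range of levels. The carboxypeptidase A gene cpa5, whose product removes hydrophobic residues from the C-terminal end of peptides, averaged 782 FPKM. The gene ctrl, for a chymotrypsin-like protease that cuts after large hydrophobic residues, averaged 535 FPKM. The elastase genes, whose products belong to the same serine protease family, were lower, with means of 79.7 FPKM for ela2 and 39.0 FPKM for ela2l, which the RefSeq gene table also lists under the older name ctrc (chymotrypsin C). The lowest of the 10 was cpb1, for carboxypeptidase B, which removes basic residues such as those that trypsin leaves at the end of a peptide, with a mean of 24.7 FPKM. That rank is per length, with 4347 nucleotides for cpb1 and 1735 for ela2l. In reads per library cpb1 had 543 to 4019 and ela2l 729 to 1898.

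By the mean over the 24 libraries, the genes for enzymes of starch and lipid lay below cpa5 and ctrl and above both elastase genes and cpb1. In vehicle the mean of cel.1 was slightly below that of ela2 (81.0 against 83.2 FPKM). The amylase gene amy2a, whose product cleaves starch, averaged 274 FPKM, and cel.1, for a bile salt-dependent lipase of cholesterol esters and other esters, averaged 88.7 FPKM. The levels of prss1 and cpb1 did not overlap in any library (1227 to 1997 against 7.30 to 45.7 FPKM).

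**Figure D1:**
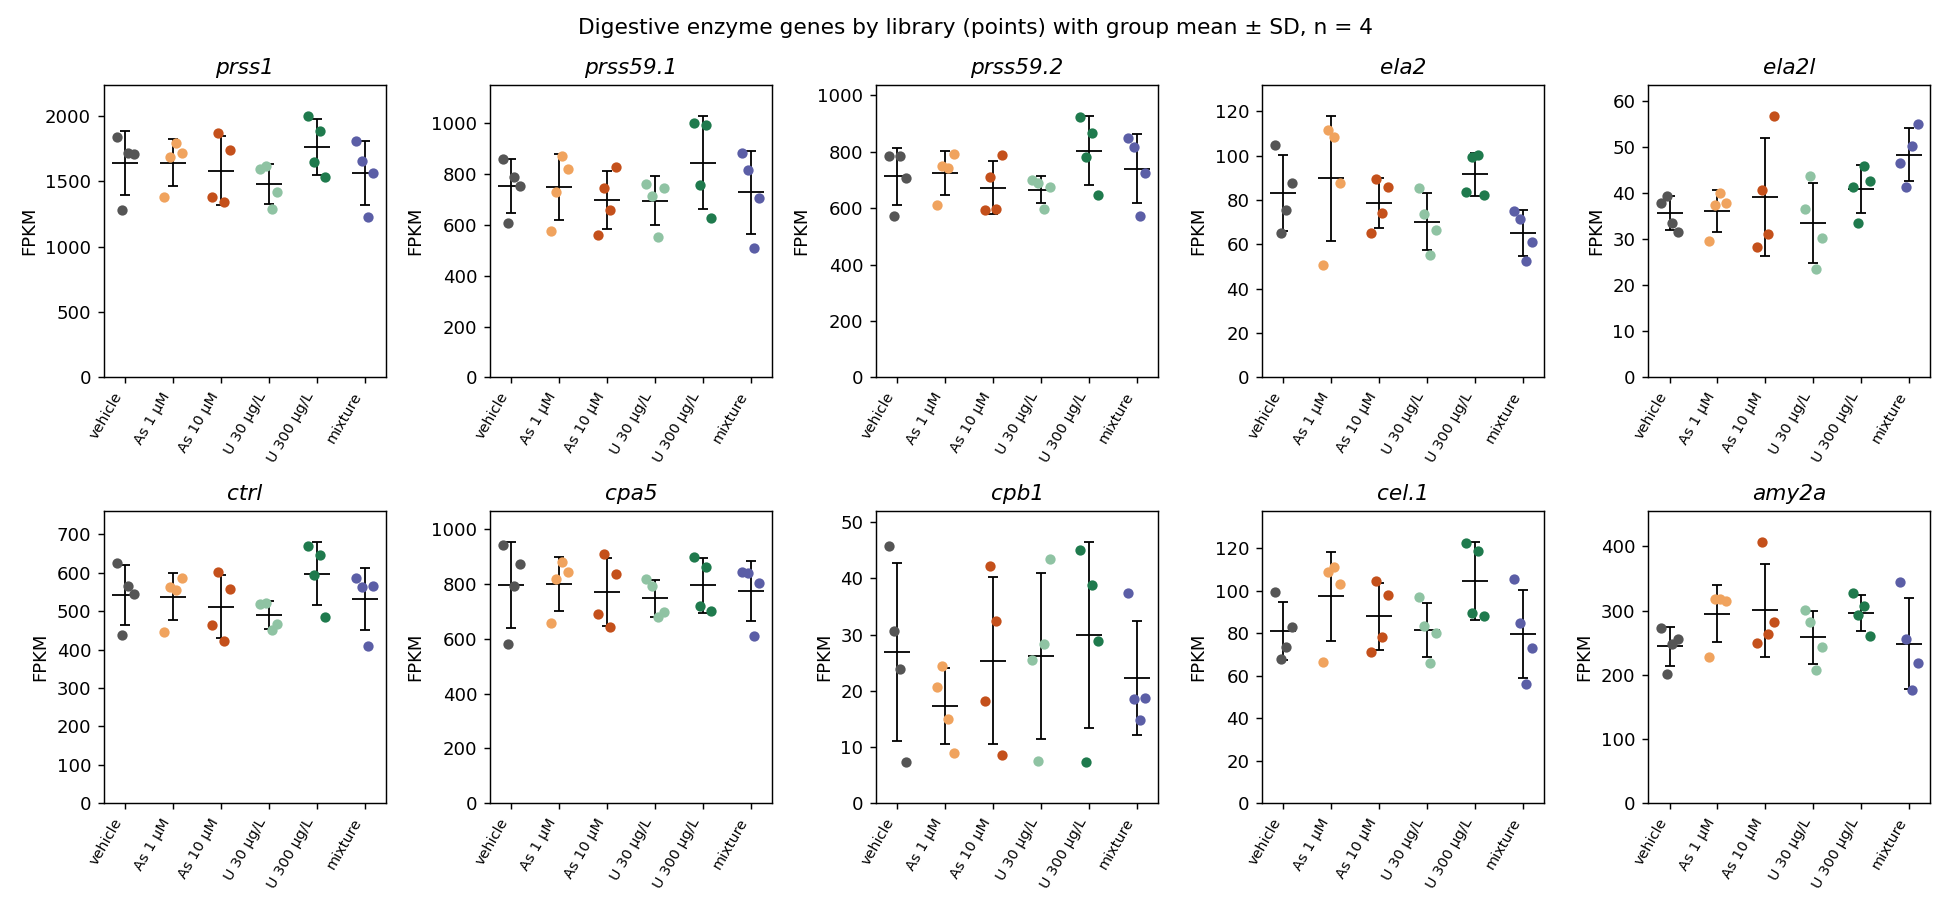
FPKM of each of the 10 enzyme genes in every library (points) by group, with the group mean (long bar) and SD (error bars, n = 4 pools of 10 larvae); each panel has its own scale from 0. The groups overlap for nearly all pairs, with the mixture libraries of ela2l (41.4 to 55.0 FPKM) above those of vehicle (31.7 to 39.4 FPKM), and cpb1 spreads most.

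Neither metal, at either dose, nor the mixture gave a called change in any of the 10 enzyme genes. Each gene was tested in 10 contrasts with limma on log2(FPKM + 1), and a gene was called at a Benjamini-Hochberg adjusted p under 0.05 over all 22682 genes. Of the 100 tests, 0 were called, and the smallest adjusted p was 0.228. A total of 5 of the 100 had an unadjusted p under 0.05, beside 6.11 to 20.9% of all genes by contrast. All but that of ctrl between the uranyl nitrate doses came from ela2l or ela2 in contrasts that share the mixture libraries. Those of ela2l and ela2 are therefore not separate observations. A second limma fit, with precision weights taken from the recovered reads, called 0 as well.

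Against vehicle, 1 µM arsenite left the estimates of 7 genes above 0 and of 3 below, with a median log2 fold change of 0.02, beside a median of -0.01 over all genes. In this contrast 0.132% of all genes were called, 0 of the 10 enzyme genes were, and none of the 10 had an unadjusted p under 0.05, which 6.74% of all genes had. The groups did not overlap in 3.66% of all genes and in 0 of the 10. The smallest adjusted p belonged to amy2a (0.851 in limma). Its libraries read 228, 319, 318 and 315 FPKM under 1 µM arsenite and 273, 202, 247 and 255 FPKM under vehicle. Replicate 1 of the exposed group lay inside the vehicle range and the other 3 lay above it. The log2 fold change of amy2a was 0.27 with a 95% interval from -0.10 to 0.63.

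At 10 µM arsenite the pattern was as flat. The background was 0.727% of genes called, 10.3% at an unadjusted p under 0.05 and 6.13% without overlap between the groups, and the enzyme genes gave 0 of 10 for each. The estimates of 7 genes were below 0 and of 3 above, with a median of -0.05 on the log2 scale, beside 0.01 over all genes. Again amy2a had the smallest adjusted p (0.624 in limma), with 249, 407, 264 and 282 FPKM in the 4 exposed libraries. The library at 407 FPKM was the highest for amy2a in the series, while those at 249 and 264 FPKM lay within the vehicle range. The higher and the lower arsenite dose did not differ by the test in any of the 10 genes (smallest adjusted p 0.947). Among all genes 0.176% were called in it, 6.11% had an unadjusted p under 0.05 and 4% did not overlap, beside 0 of 10 each time.

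For uranyl nitrate most estimates lay below vehicle at the lower dose and all lay above it at the higher dose. At 30 µg/L, 8 of the 10 estimates were below 0 (median log2 fold change -0.10, beside 0.00133 over all genes). The 2 above 0 were those of amy2a (0.08) and cel.1 (0.01). Of all genes 0% were called, 7.14% had an unadjusted p under 0.05 and 4.34% did not overlap, and the enzyme genes gave 0 of 10 each time. At 300 µg/L all 10 estimates were above 0 (median 0.15, beside -0.00464 over all genes). The background was 1.77% called, 16.6% at an unadjusted p under 0.05 and 9.75% without overlap, and the enzyme genes again gave 0 of 10 each time. Most of the genes moved together between libraries, as described below, so these 10 signs are not 10 separate observations.

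The largest of these estimates was that of cel.1 at 300 µg/L. Its libraries read 122, 89.5, 118 and 88.1 FPKM at 300 µg/L, against 99.3, 67.9, 73.6 and 83.1 FPKM under vehicle. Both lower exposed libraries fell inside the vehicle range. The log2 fold change of cel.1 was 0.36 with a 95% interval from -0.03 to 0.76 and an adjusted p of 0.347 in limma.

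The contrast of the 2 uranyl nitrate doses held the smallest adjusted p of all 100 tests and was the one in which most genes of the transcriptome were called (6.65%, with 20.9% at an unadjusted p under 0.05). Of the 10 enzyme genes 0 were called and 1 had an unadjusted p under 0.05. All 10 estimates were higher at 300 µg/L, with a median log2 difference of 0.26, beside -0.00136 over all genes. Groups without overlap were found for 14.7% of all genes and for 0 of the 10.

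The gene with that smallest adjusted p was ctrl, while the smallest unadjusted p belonged to ela2l in another contrast, given below. The libraries of ctrl read 669, 594, 646 and 485 FPKM at 300 µg/L and 518, 523, 452 and 466 FPKM at 30 µg/L. Replicate 4 of the higher dose lay among the libraries of the lower dose, and the other 3 lay above all of them. The log2 difference in ctrl was 0.28 (SE 0.133, 95% interval 0.01 to 0.56) at an adjusted p of 0.228 and an unadjusted p of 0.0458 in limma.

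The trypsin genes ran in parallel with ctrl in this contrast. In prss1 the libraries read 1997, 1649, 1883 and 1530 FPKM at 300 µg/L and 1591, 1619, 1289 and 1418 FPKM at 30 µg/L. The means, 1765 and 1479 FPKM, were the highest and the lowest of the 6 groups and differed 1.19-fold. The vehicle libraries of prss1, at 1841, 1283, 1715 and 1710 FPKM, spanned most of the range of both doses. The log2 difference between the doses was 0.25 with a 95% interval from -0.03 to 0.53 and an adjusted p of 0.296.

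**Figure D2:**
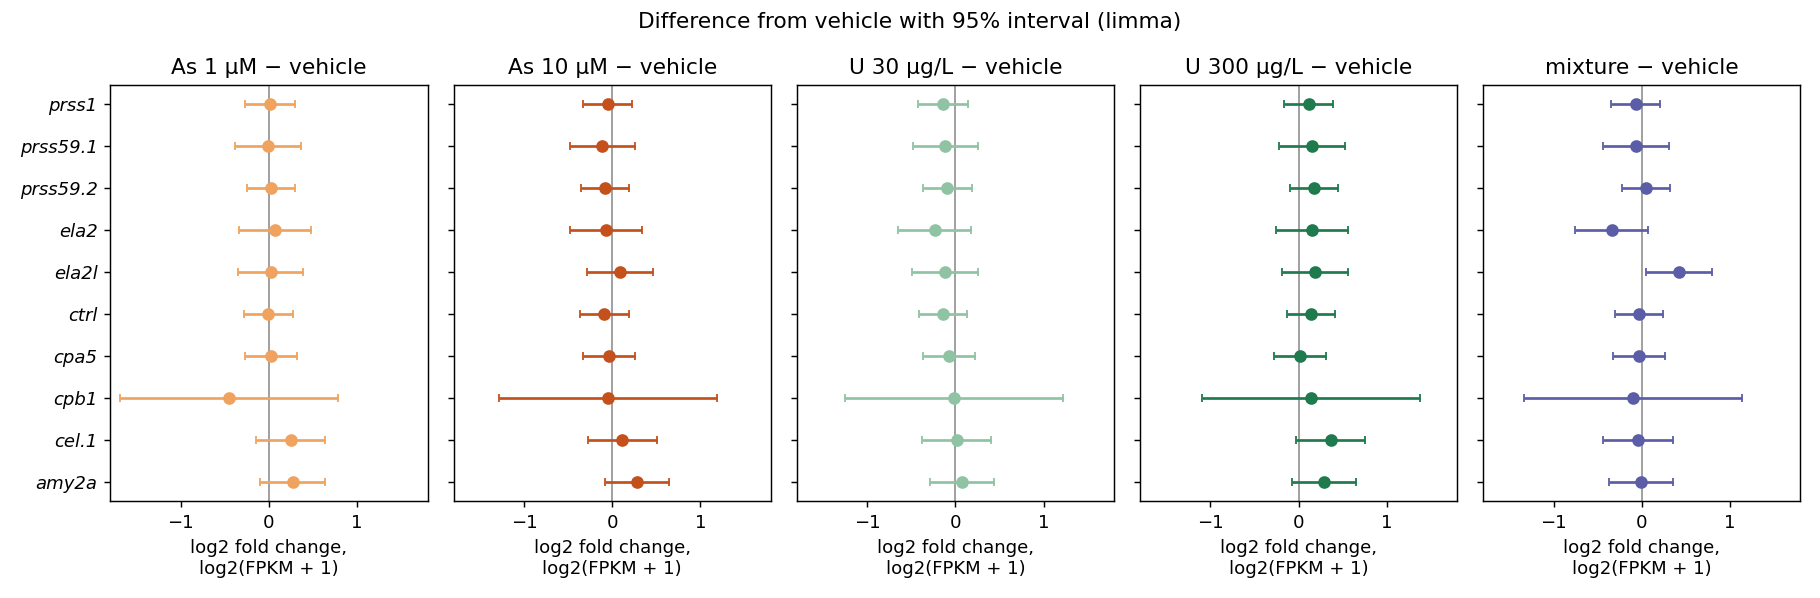
Log2 fold change of each enzyme gene against vehicle (points) with its 95% interval (bars) from limma on log2(FPKM + 1), 1 panel for each exposure. Of the 50 intervals 49 include 0; the exception is ela2l in the mixture (0.05 to 0.80), which was not called after adjustment, and those of cpb1 are the widest.

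In the mixture the elastase genes ela2l and ela2 had estimates of opposite sign, and neither was called. The background in the mixture against vehicle was 0.406% of genes called, 10.7% at an unadjusted p under 0.05 and 4.92% without overlap between the groups. Of the 10 enzyme genes 0 were called, 1 had an unadjusted p under 0.05 and the same 1, ela2l, had groups without overlap. A share of 1 in 10 is close to the 10.7% of all genes and, for groups without overlap, above the 4.92% of all genes.

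The libraries of ela2l read 46.6, 41.4, 50.3 and 55.0 FPKM in the mixture and 38.0, 39.4, 33.5 and 31.7 FPKM under vehicle. Each mixture library lay above each vehicle library. The log2 fold change was 0.43 (SE 0.180, 95% interval 0.05 to 0.80), with an unadjusted p of 0.0271 and an adjusted p of 0.392 in limma.

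Against its components the mixture gave the same picture for ela2l. Under 1 µM arsenite alone the gene read 29.6, 37.4, 39.99 and 37.8 FPKM, all below the mixture, with a log2 difference of 0.41 and an adjusted p of 0.566. Under 30 µg/L uranyl nitrate alone it read 36.6, 43.7, 23.6 and 30.2 FPKM, of which 1 library overlapped the mixture. The log2 difference of the mixture from uranyl nitrate alone was 0.54 (95% interval 0.17 to 0.92). In limma its unadjusted p was 0.00647, the smallest among the tests of the enzyme genes, and its adjusted p was 0.236. These contrasts and the one against vehicle share the same 4 mixture libraries.

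Against 1 µM arsenite 0.00441% of all genes were called, 7.93% had an unadjusted p under 0.05 and 3.49% did not overlap, beside 0, 2 and 1 of the 10 enzyme genes. Against 30 µg/L uranyl nitrate 0.238% of all genes were called, 11.2% had an unadjusted p under 0.05 and 6.09% did not overlap, beside 0, 1 and 0 of the 10.

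For ela2, the neighbour of ela2l, the mixture libraries read 75.3, 71.3, 52.4 and 60.9 FPKM, against 105, 65.1, 75.3 and 87.7 FPKM under vehicle. The ranges overlapped. The log2 fold change was -0.34 with a 95% interval from -0.75 to 0.07 and an adjusted p of 0.575.

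With 1 µM arsenite alone ela2 read 50.9, 112, 109 and 87.7 FPKM. The mixture was below it by 0.41 on the log2 scale (a log2 difference of -0.41, unadjusted p 0.0492, adjusted p 0.629 in limma), although replicate 1 of the arsenite group was the lowest ela2 library of the series. The ratio of ela2l to ela2 was 0.620, 0.581, 0.960 and 0.902 in the mixture and ran from 0.335 to 0.662 in the other 20 libraries. Of those 20, 4 lay above the lowest mixture library. The sum of ela2 and ela2l, which does not depend on the split of reads between them, overlapped between mixture and vehicle. It was 122, 113, 103 and 116 FPKM in the mixture and 143, 105, 109 and 119 FPKM under vehicle.

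Departure from additivity (the log2 change in the mixture less the sum of the log2 changes of its components given singly) was called in 0.0353% of all genes and in 0 of the 10 (7.33% and 0 at an unadjusted p under 0.05). The smallest adjusted p was again that of ela2l (0.679), with an estimate of 0.52.

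The order of the 6 group means differed between most of the genes, and only prss59.1 and ctrl had the same one. Uranyl nitrate at 300 µg/L had the highest mean for 7 of the 10 genes and uranyl nitrate at 30 µg/L the lowest for 6. In no gene did neighbours in the order of group means lie apart without overlap. Over all 150 pairs of groups, 15 for each gene, 3 did not overlap: ela2 was higher at 300 µg/L uranyl nitrate than in the mixture, and ela2l was higher in the mixture than in vehicle and than under 1 µM arsenite. In the pairwise contrasts tested, the share of all genes without overlap ran from 3.49 to 14.7%. That share was not computed for the other pairs of groups, to which the pair of ela2 belongs.

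Summed over the 10 genes, the group means were 4912 ± 730 FPKM (SD) for vehicle, 4989 ± 623 and 4764 ± 738 for 1 and 10 µM arsenite, 4546 ± 444 and 5368 ± 748 for 30 and 300 µg/L uranyl nitrate, and 4801 ± 814 for the mixture. Each mean lay within the spread of the vehicle libraries. For the genes other than cpb1, the 45 intervals against vehicle reached from -0.75 to 0.80 on the log2 scale at their outermost, and for the 5 abundant proteases prss1, prss59.1, prss59.2, ctrl and cpa5 the 25 intervals reached from -0.49 to 0.52.

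Libraries of the same group differed more in these genes than in most others. The residual SD of the enzyme genes on the log2 scale ran from 0.200 (prss59.2) to 0.301 (ela2) and was 0.915 for cpb1, beside a median of 0.138 over all genes tested. The genes other than cpb1 therefore lay between the 77.2th and the 90.5th percentile of all genes in spread, and cpb1 at the 99.4th. The log2(FPKM + 1) scale understates the spread of low genes, and a comparison with genes of like level was not made.

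The genes other than cpb1 and ela2l tended to vary together between libraries. Over the 24 libraries, the 28 pairs among prss1, prss59.1, prss59.2, ela2, ctrl, cpa5, cel.1 and amy2a had Pearson correlations of 0.628 to 0.958 with a median of 0.821 (Spearman 0.597 to 0.932), and of 0.570 to 0.944 without the 2 farthest libraries of each pair. After the group means were taken out, the same pairs gave 0.682 to 0.969. These correlations describe 24 points that share libraries and the FPKM total of each library.

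The mixture shows it within 1 group. Its replicate 3 was the lowest library of the series for prss1 (1227 FPKM), prss59.1 (509), prss59.2 (571), ctrl (411), cel.1 (56.0) and amy2a (176), while replicate 1 of the same group read 1808, 881, 846, 586, 105 and 344 FPKM. At the other end, replicate 1 of 300 µg/L uranyl nitrate was the highest library for prss1 (1997 FPKM), prss59.1 (998), prss59.2 (924), ctrl (669) and cel.1 (122). Thus the same pool of larvae tended to be high or low for proteases, lipase and amylase alike. The elastase gene ela2l was an exception in the mixture, with 50.3 FPKM in replicate 3 and 46.6 FPKM in replicate 1.

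**Figure D3:**
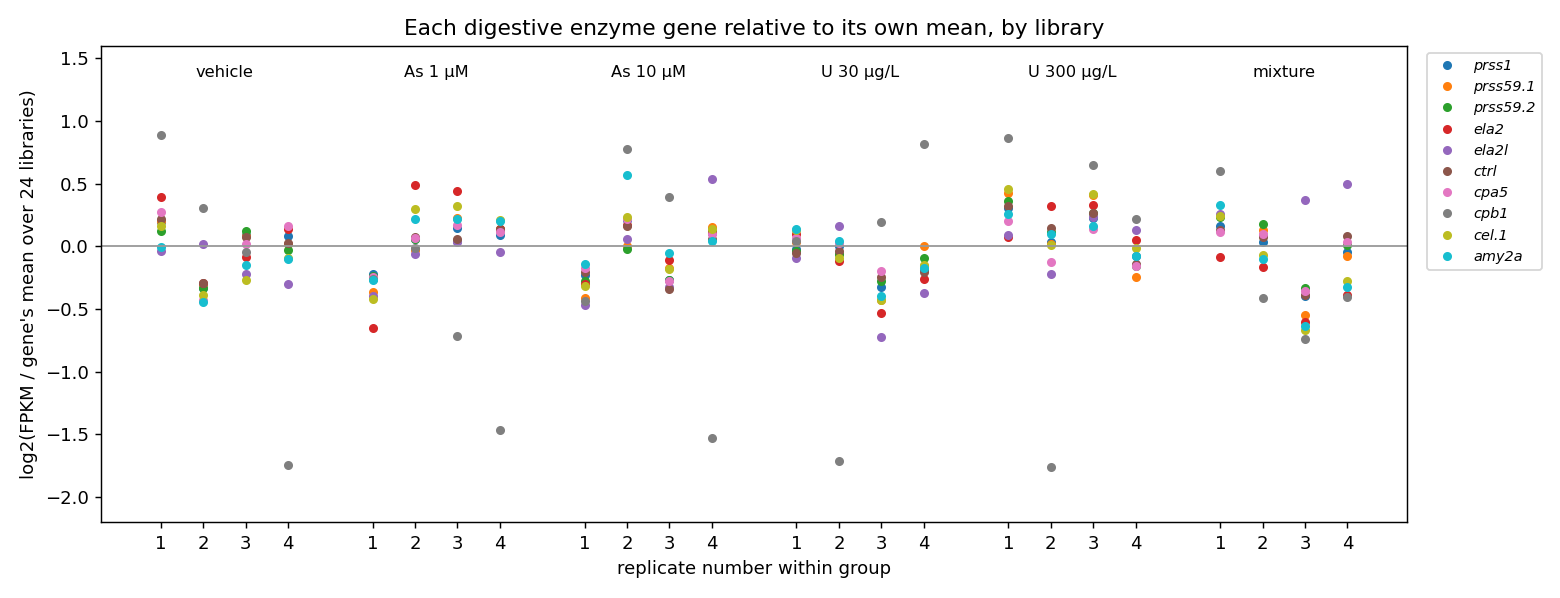
Log2 ratio of each enzyme gene to its own mean over the 24 libraries (vertical axis), by replicate within each group (horizontal axis), 1 colour a gene. Most genes of a library lie close together and shift as a block, as in mixture replicate 3, while cpb1 lies far from them in many libraries. In mixture replicate 3 ela2l lies apart, above its mean (50.3 against 39.0 FPKM).

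Relative to prss1, the chymotrypsin-like gene ctrl and the carboxypeptidase A gene cpa5 varied least. The ratio of ctrl to prss1 stayed between 0.311 and 0.362 over the 24 libraries, a 1.17-fold range, while prss1 itself ranged 1.63-fold. For cpa5 the ratio to prss1 was 0.436 to 0.529, a 1.21-fold range. The ratio of prss59.1 ranged 1.32-fold and that of prss59.2 slightly less, those of cel.1 and amy2a 1.51-fold and 1.56-fold, and that of ela2 1.80-fold. The lipase and amylase genes each correlated best with the other (r = 0.90 between cel.1 and amy2a), with prss1 close behind for cel.1 (0.88). For deviations from group means, cel.1 was as close to prss59.1 (0.908) and prss1 (0.906) as to amy2a (0.906).

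The carboxypeptidase B gene cpb1 and the elastase gene ela2l followed the other genes less closely. Pearson correlations of cpb1 with the other 9 genes lay between -0.109 and 0.174, and those of ela2l between -0.109 and 0.401. Without 2 libraries of each pair, dropped as above by the gene listed first, those of cpb1 reached 0.198 at most. Those of ela2l ran from 0.02 to 0.631, and only that with prss1 (0.631) reached the range of the 28 pairs above. The next was that with prss59.2 (0.561). In both, libraries were dropped by the partner of ela2l. Where they were dropped by ela2l itself, r fell with ctrl (from 0.373 to 0.299), cpa5, cel.1 (from 0.304 to 0.170) and amy2a, and rose with cpb1. These values therefore cannot be used to compare the partners of ela2l. The ratio of cpb1 to prss1 ranged 7.10-fold, and that of ela2l 2.24-fold.

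**Figure D4:**
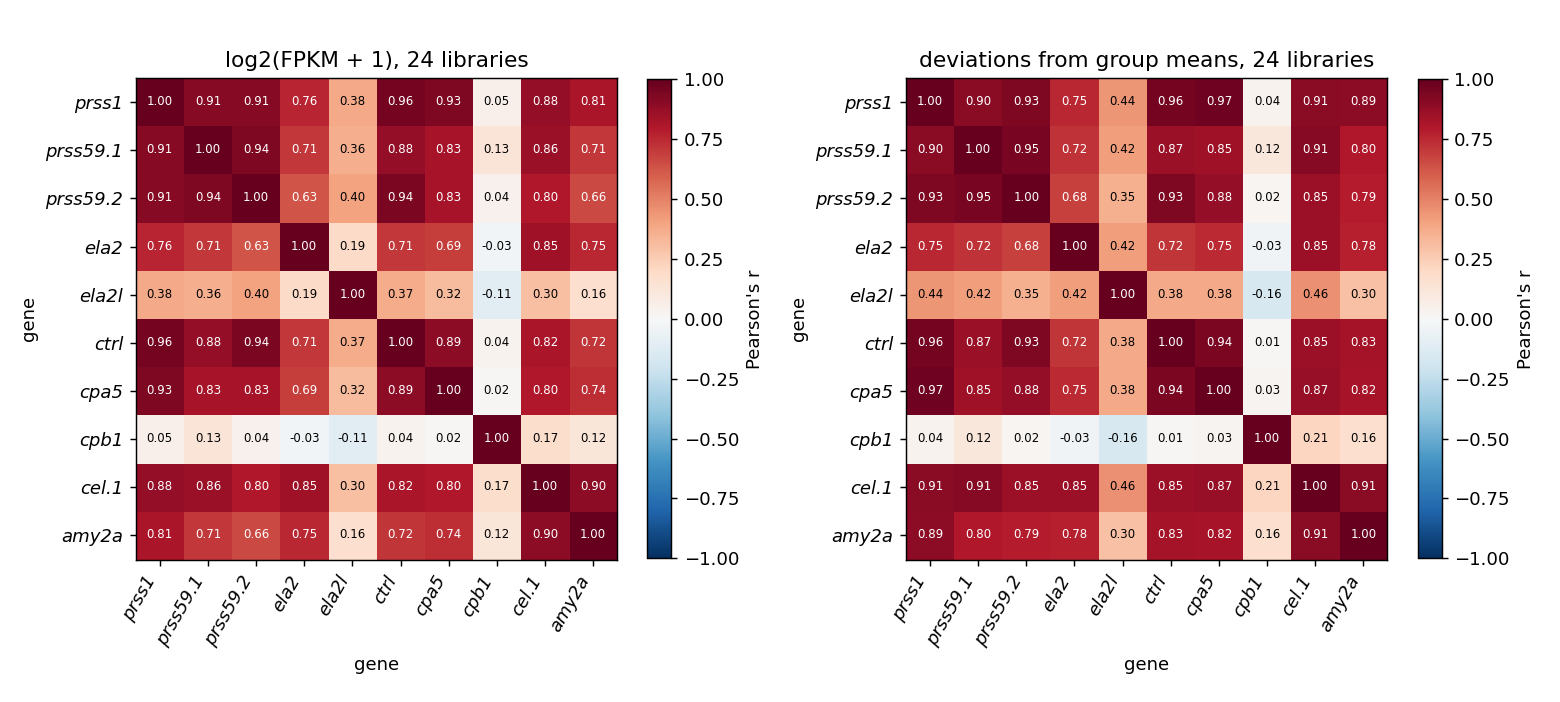
Pearson's r between the enzyme genes over the 24 libraries, for log2(FPKM + 1) on the left and for deviations from the group means on the right. Except in the rows and columns of ela2l and cpb1, r is 0.63 or more on the left and 0.68 or more on the right.

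In cpb1 the libraries split widely inside every group. They read 45.7, 30.6, 23.9 and 7.38 FPKM under vehicle, 20.6, 24.5, 15.0 and 8.93 under 1 µM arsenite, and 18.2, 42.2, 32.5 and 8.56 under 10 µM arsenite. Values were 25.4, 7.54, 28.2 and 43.5 FPKM at 30 µg/L uranyl nitrate, 45.0, 7.30, 38.8 and 28.8 at 300 µg/L, and 37.3, 18.6, 14.8 and 18.6 in the mixture. A total of 5 libraries lay under 10 FPKM, 1 in each group but the mixture, and the other 19 were at 14.8 FPKM or above (the limit of 10 FPKM was chosen after the values were seen).

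The low cpb1 libraries were not low for trypsin, since prss1 read 1619 to 1736 FPKM in all 5, above its mean of 1611 FPKM. The library with the lowest cpb1 value, replicate 2 of 300 µg/L uranyl nitrate, read 1649 FPKM for prss1 and 719 FPKM for cpa5. The table divides cpb1 reads by a length of 4347 nucleotides, against 850 to 1785 for the other 9 genes. With this spread the 95% intervals of cpb1 against vehicle reached from -1.69 to 1.38 on the log2 scale. Only large changes of cpb1 could have been called, and the smallest such change was not computed.

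Other secreted products of acinar cells were looked at as a list of 28 genes tested. None was called in any of the 10 contrasts (0 of 28 each time). Of all genes, 6.65% were called between the uranyl nitrate doses and at most 1.77% in any other contrast. The list medians against vehicle lay between -0.03 and 0.07 on the log2 scale. The most abundant were cela1.6, an elastase gene at a mean of 2095 FPKM, and ela3l, another elastase gene at 599 FPKM. Of the list, 11 of 28 had a correlation over 0.7 with the mean standardised value of the 10 enzyme genes over the 24 libraries, beside 0.0882% of all genes tested.

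The 10 genes with a symbol most like the enzyme genes by that measure, over 24 libraries, were cela1.6 (r = 0.964), ela3l (0.950), c6ast4 (0.896), sycn.2 (0.875), cpa4 (0.818), cel.2 (0.803), chia.2 (0.797), amy2al2 (0.794), endou (0.775) and erp27 (0.771). Of these, 9 are on the list of acinar products and chia.2 is on the enterocyte list. The group includes a syncollin gene of the zymogen granule (sycn.2), a further carboxypeptidase A gene (cpa4), the copy of the lipase gene next to cel.1 (cel.2), a further amylase gene (amy2al2) and a chitinase gene (chia.2). The ratio of ela3l to prss1, and that of cela1.6 to prss1, ranged 1.197-fold and 1.196-fold over the libraries, beside 1.17-fold for ctrl.

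Regulators and receptors of acinar cells did not share the pattern. Of 15 such genes tested, 0 were called in any contrast, beside 0 to 6.65% of all genes by contrast. Their correlations with the mean standardised enzyme value ran from -0.319 to 0.209. The most abundant were xbp1, a transcription factor of secretory cells and of the unfolded protein response, at 89.2 to 112 FPKM, and gata6, a GATA transcription factor, at 6.81 to 11.9 FPKM. The gene of Ptf1a itself, ptf1a, was at 0.851 to 2.58 FPKM over the libraries. How much of these levels in whole larvae came from acinar cells was not measured, which limits what the correlations can show.

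Marker lists of the endocrine pancreas, the intestinal lining and the liver were read beside the enzymes. Summed over the list, enterocyte genes correlated with the mean standardised enzyme value at r = 0.590 (Spearman 0.487, 0.711 for deviations from group means). Without the 2 libraries farthest from the median of that sum, r was 0.523. Gene by gene the relation was weaker, with a median r of 0.167 over the 21 enterocyte genes, 1 of them over 0.7 (chia.2, the most abundant of the list), beside medians of 0.193 for liver, 0.07 for endocrine genes, 0.09 for acinar regulators, 0.532 for the other acinar products and -0.03 for all genes tested. The sum of liver genes gave 0.04, and 0.299 for deviations from group means. Depth of the library gave 0.06, with 0.247 without the 2 libraries farthest from the median depth and 0.268 for deviations. The sums of endocrine genes (-0.06, deviations -0.02) and of acinar regulators (-0.05, deviations 0.00) were near 0, and the sum of the other acinar products gave 0.914 (deviations 0.915). The most abundant genes of these lists were neurod1 (36.2 to 52.7 FPKM) and the somatostatin gene sst1.1 (25.5 to 37.0 FPKM) for the endocrine pancreas, chia.2 (638 to 866 FPKM) and the apolipoprotein gene apoa4b.1 (394 to 579 FPKM) for enterocytes, and the apolipoprotein genes apoa2 (2046 to 3878 FPKM) and apoa1b (1957 to 3326 FPKM) for liver. The part of these lists in the spread of the enzymes was not tested.

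Some of these other genes were called where the enzymes were not. The lists were chosen with earlier results of these data known, so counts of called genes are no test of a list. Of 16 endocrine genes, 3 were called in the mixture against vehicle, all higher, beside 0.406% of all genes. The median log2 fold change of the 16 was 0.05. The somatostatin genes sst1.2 and sst2, for a hormone that inhibits secretion, rose from 10.5 to 21.7 FPKM (log2 fold change 0.97, adjusted p 0.00254 in limma) and from 5.84 to 12.9 FPKM (1.04, adjusted p 0.00802). The third was neurod1, for a transcription factor of endocrine cells and neurons, which rose from 40.01 to 50.6 FPKM (0.33, adjusted p 0.00113). Over 18 alternatives the adjusted p ran from 0.00141 to 0.222 for sst1.2, from 0.00319 to 0.123 for sst2 and from 0.000507 to 0.110 for neurod1, with the highest value, and the only one above 0.05, in the fit of those 2 groups alone.

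The gene neurod1 was also called at 10 µM arsenite (0.24, adjusted p 0.0157, 0.0108 to 0.191 over the alternatives) and at 300 µg/L uranyl nitrate (0.22, adjusted p 0.0258, 0.0166 to 0.109). The first call was lost without vehicle replicate 1 (0.0718) and without exposed replicates 2 (0.0571) or 4 (0.0663). The second was lost without vehicle replicates 1 (0.0934) or 3 (0.0526) and without exposed replicates 3 (0.055) or 4 (0.0876).

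Among 21 enterocyte genes, 5 were called at 10 µM arsenite against vehicle, 3 higher and 2 lower, beside 0.727% of all genes. The median log2 fold change of the 21 was -0.03. The 3 with the smallest p were higher. These 3 were vil1, which encodes the microvillus protein villin (89.7 to 121 FPKM, log2 fold change 0.44, adjusted p 0.00257 in limma), fabp2, for the intestinal fatty acid binding protein (3.93 to 6.70 FPKM, 0.67, adjusted p 0.00362), and anpepb.1, for a membrane aminopeptidase (84.0 to 115 FPKM, 0.45, adjusted p 0.00472). Over 18 alternatives the adjusted p of anpepb.1 ran from 0.0017 to 0.0264. For vil1 and fabp2 it was above 0.05 in the fit of those 2 groups alone (0.1004 and 0.173) and otherwise below, with the lowest values at 0.000356 and 0.00016.

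The 2 enterocyte genes called lower at 10 µM arsenite, named after their values were seen, were the apolipoprotein genes apoa4b.3 and apoa4b.2. The level of apoa4b.3 fell from 51.3 to 24.3 FPKM, with a log2 fold change of -1.05 (adjusted p 0.0141 in limma, 0.00832 to 0.0865 over the alternatives). Its call ended on leaving out vehicle replicates 1 (0.067) or 3 (0.0646) or exposed replicate 1 (0.0668). The level of apoa4b.2 fell from 297 to 223 FPKM, with a log2 fold change of -0.40 (adjusted p 0.0311, 0.00315 to 0.289). Its call ended on leaving out vehicle replicates 1, 3 or 4 or exposed replicates 1, 3 or 4 (0.0547 to 0.121).

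The enterocyte gene fabp2 was also called at 300 µg/L uranyl nitrate (0.60, adjusted p 0.0129, 0.00132 to 0.105 over the alternatives), in the mixture (0.60, adjusted p 0.0157, 0.000748 to 0.313) and between the arsenite doses (0.58, adjusted p 0.0364, 0.0203 to 0.202). Leaving out vehicle replicate 4 ended the first call (0.0613) and the second (0.0882). The second was also lost without vehicle replicate 2 (0.0523) or mixture replicate 4 (0.0503), and the call between the doses held only when replicate 1 of 10 µM or replicate 2 of 1 µM was left out, with 0.112 to 0.160 after leaving out any of the other 6 libraries.

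Between the uranyl nitrate doses, the aminopeptidase gene anpepa was lower at 300 µg/L (-0.48, adjusted p 0.0273, 0.0200 to 0.105 over the alternatives). The apolipoprotein gene apoa4b.3 was higher (0.76, adjusted p 0.0347, 0.0163 to 0.125) and the liver gene apoa2 was lower (-0.49, adjusted p 0.0348, 0.0228 to 0.112). The call of anpepa ended on leaving out replicates 1, 3 or 4 of 30 µg/L or replicates 1 or 4 of 300 µg/L (0.0555 to 0.105). Those of apoa4b.3 and apoa2 ended on leaving out any library but replicate 1 of 30 µg/L and replicate 3 of 300 µg/L (0.0531 to 0.125 and 0.0527 to 0.112). In liver, 0 of the 18 genes tested were called in the other 9 contrasts, beside 0 to 1.77% of all genes by contrast. That an enterocyte or endocrine gene was called and an enzyme gene was not does not show that they differed in response, which was not tested.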

How the data were processed

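RNA-seq of 24 libraries of whole larvae was used. The authors deposited 1 table of FPKM values for 39974 genes, and the values were used as deposited. The submitters' processing notes name HISAT2 2.1.0, HTSeq 0.6.1, DESeq2 1.10.1 and the build GRCz11, without their roles. Annotation and strand setting are not given in the sources used here. Symbols came from a RefSeq gene table of another assembly (32044 gene numbers matched, 80.2%), so no coordinates are given. FPKM values stepped in whole reads (100% of values above 0), which gave depth and gene lengths. Reads without molecular identifiers are not independent molecules.

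Genes with at least 0.5 FPKM in 4 or more libraries were tested (22682) as log2(FPKM + 1), a scale that understates changes of low genes, with limma 3.58.1 in R 4.3.3. All 24 libraries entered 1 fit of 6 group means with 18 residual degrees of freedom, a variance trend and no block. P-values are two-sided, with Benjamini-Hochberg adjustment within each of 10 contrasts. The script was tested on simulated data. The labels call the libraries biological replicates, each a pool of 10 larvae. Alternatives were another pseudocount, a call that also needs an absolute log2 fold change of 1 or more, no variance trend, low-value filters, scalings, two-group fits, a replicate block, precision weights and leaving out each library. Correlations are descriptions without p.

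The 10 genes and the lists were chosen with earlier results of these data known. All 10 were named in every comparison. From each list, the text names called genes (at most 3 per contrast, smallest p first) and the 2 most abundant genes, and, of all other genes, the 10 most correlated with the enzymes. The genes ins, ctrb.1, ctrb.2, ctrb.3, ptf1a, apoa4b.2 and apoa4b.3 (lower at 10 µM arsenite) were named after their values were seen.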

Additional observations from a re-analysis of the deposited data

Results flagged for a closer look

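Within the 60 sets of 4 libraries (10 genes in 6 groups), 3 had 1 library that stood far from its group, by the gap to its nearest neighbour relative to the range of the group. Chance gives about 1 in 20, which is 3 of 60. In the mixture, ctrl read 411 FPKM in replicate 3 and 564 to 586 FPKM in the other 3 libraries. Also in the mixture, cpb1 read 37.3 FPKM in replicate 1 and 14.8 to 18.6 FPKM in the others. Under 1 µM arsenite, amy2a read 228 FPKM in replicate 1 and 315 to 319 FPKM in the others.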

How the results depend on the processing

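Under the alternatives named in the methods, 198 counts of called enzyme genes over the 10 contrasts were recomputed, and all were 0, including the fit with the replicate block (0 called in each contrast). The smallest adjusted p of an enzyme gene under any of them was 0.111, for ela2 between the uranyl nitrate doses in the fit of those 2 groups alone (0.111 to 0.532 over its 18 alternatives, 0.268 as reported). Of 1980 recomputed fold changes of enzyme genes, 131 changed sign, none of them called, each by less than the gene's residual SD. The precision weights on recovered reads were added after the data were seen. Other scalings moved the median of all genes by at most 0.02 on the log2 scale. Of 304 recomputed values of called list genes, 75 were no longer past the threshold and 0 changed sign. Of the 75, 43 came from leaving out 1 library, 14 from the added requirement of a log2 fold change of 1 or more, 13 from the fit of 2 groups alone, 3 from no filter on low values and 2 from the replicate block. The ranges of adjusted p over 18 alternatives leave out the fold change requirement, which does not alter p.

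The median correlation over all 45 pairs of enzyme genes was 0.710, and it was 0.778 for deviations from group means, 0.717 with median-of-ratios scaling and 0.715 with FPKM rescaled to the same total of all other genes. Libraries that share a replicate number showed little common deviation (60 pairs, r from -0.155 to 0.107, 2 of them over 0.1). Of 24 libraries, 7 correlated best with a library of their own number. Each was compared with all libraries of the other groups, and each group of 4 holds 1 library of each number. The labels do not say what a shared number means, and whether such libraries had a common origin was not tested.

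Detection was limited by 4 pools in a group and by the spread between them, most of all for cpb1.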

Other observations

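Among the other acinar products, the chymotrypsinogen B genes ctrb.1, ctrb.2 and ctrb.3 varied widely between libraries of 1 group. The level of ctrb.1 ran from 17.7 to 578 FPKM over the 24 libraries (465 to 17655 reads), a 32.6-fold range, that of ctrb.2 from 27.4 to 294 FPKM (10.7-fold) and that of ctrb.3 from 11.4 to 117 FPKM (10.3-fold). Under 1 µM arsenite ctrb.1 read 17.7, 286, 537 and 380 FPKM, and under 30 µg/L uranyl nitrate 206, 361, 578 and 20.4 FPKM. High and low libraries thus occurred in the same group, and none of these genes was called in any contrast. How reads shared between these copies were assigned is not given in the sources used here.

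The insulin gene ins read 22.8 FPKM in vehicle replicate 4, against 0.372, 0.580 and 0.362 FPKM in the other vehicle libraries and 0.0691 to 0.804 FPKM in the 20 exposed libraries. That library also had the second lowest level of cpb1 in the series (7.38 FPKM) and was not unusual for prss1 (1710 FPKM).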
